A study of Mus musculus with 4 samples.

Results

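The genes described here are 8 genes of megakaryocytes and platelets, Pf4, Itga2b, Vwf, Gp1bb, Gp9, Gp5, Gp6 and F2r, out of 32285 genes in the count matrices. They were taken by symbol, not by their values, and all 8 symbols were found once each. The study profiled single mouse bone marrow cells with 10x Genomics 5′ chemistry, 10 weeks after transplantation. Libraries of CD45.2+Kit+ cells came from 3 groups with 1 library each: a control group, a group in which Mll3/4 was deleted, and a group labelled Mll3/4SI. The labels do not say what SI stands for, which allele or Cre line was used, or how many mice went into a library. Mll3 and Mll4 are the histone methyltransferases encoded by Kmt2c and Kmt2d. A further control library of CD45.2+B220lo cells, which are mostly B lineage cells, entered no comparison.

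Megakaryocytes are the large marrow cells that shed platelets, and they arise from stem and progenitor cells that carry Kit. Their genes encode adhesion receptors for von Willebrand factor, fibrinogen and collagen, a thrombin receptor and the proteins stored in alpha granules. Some of these genes are not restricted to the lineage: Itga2b is also used by early progenitors and mast cells, and F2r, a thrombin receptor of human platelets, is replaced on mouse platelets by F2rl2 and F2rl3.

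After filtering, 11051 control, 13747 Mll3/4 deleted and 11501 Mll3/4SI cells were kept, with median depths of 11594, 6507 and 11969 UMIs per cell. A UMI is 1 counted RNA molecule, and levels are given as CPM (the usual counts-per-million scale), from UMIs summed over the cells named. With 1 library per group there is no replicate check, and no difference below was tested between conditions. Ranges in brackets are exact 95% intervals that cover counting error only. The libraries shared 178 to 213 kept barcodes in pairs. Kit was detected in 84.1% to 86.8% of cells of the 3 Kit+ libraries. Kmt2c stood at 58.1 CPM in control, 51.8 in deleted and 62.7 in SI cells, and Kmt2d at 24, 20.1 and 20.7 CPM. The labels do not say which part of either gene was removed, so these tags do not check the deletion.

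The Kit+ libraries differed in the cells they held. In the deleted library 12947 of 13747 cells (94.2%) carried 10 or more UMIs summed over 8 B lineage markers (among them Cd79a, Cd79b, Ebf1, Igll1, Vpreb1, Vpreb3 and Pax5), against 48 control and 30 SI cells. In the SI library 1561 cells (13.6%) carried 10 or more UMIs over the mast or basophil markers Ms4a2, Fcer1a, Gzmb, Mcpt8, Prss34, Cma1 and Mcpt4, against 104 control and 9 deleted cells. A further 1 SI cell carried both kinds of markers and is left out of both counts. Over all cells of a library, fewer cells that express a gene and less of its RNA per cell cannot be told apart. The counts of members past 2-fold are therefore also given without these marker cells and within 3 sets of cells: those with at least 1 UMI of the stem cell gene Hlf (2493 control, 186 deleted and 3238 SI cells), those with 1 to 9 UMIs of the erythroid enzyme gene Car1 (2125, 245 and 1138 cells), and those with at least 10 UMIs of the neutrophil granule gene Elane (4223, 554 and 3345 cells). In the deleted library 209 of the 245 Car1 cells (85.3%) carried the B lineage markers, whose summed level there was 12005 CPM, so this set goes against its name. In control and SI too, 10 erythroid markers summed to less in the Car1 cells (618 and 510 CPM) than in all kept cells (2241 and 896 CPM), so the set is called by its rule and not as erythroid cells. In Hlf cells 8 neutrophil markers summed to 17081 CPM in control, 23277 CPM in deleted and 13110 CPM in SI. There 8 stem and progenitor markers summed to 897, 836 and 980 CPM, and 8 mast or basophil markers to 192, 127 and 921 CPM. The Hlf set is thus a mixture that differed between libraries, and is also called by its rule. The erythroid sum also differed between libraries, at 2241 CPM in control, 236 CPM in deleted and 896 CPM in SI cells over all kept cells, and at 881, 200 and 302 CPM in Hlf cells. It moved with Pf4, and its part in the results below was not tested.

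The start regions of 3 genes are shown because their levels separated in the SI library over all kept cells while all 3 were low in the deleted library. Without the mast or basophil marker cells Gp9 and Gp5 did not separate in SI, with ratios to control of 0.861 (0.807 to 0.919) and 0.897 (0.852 to 0.944). The 250 bases upstream of the RefSeq start (build GRCm38.p6) were searched on both strands for AGATAA and TGATAA (bound by GATA factors), AGGAAG and CGGAAG (ETS factors) and TGTGGT (RUNX factors), and capitals mark the matches. Pf4 is at chr5:90772185-90772434 on the plus strand, Gp9 at chr6:87777820-87778069 on the plus strand and Gp5 at chr16:30310782-30311031 on the minus strand.
Pf4: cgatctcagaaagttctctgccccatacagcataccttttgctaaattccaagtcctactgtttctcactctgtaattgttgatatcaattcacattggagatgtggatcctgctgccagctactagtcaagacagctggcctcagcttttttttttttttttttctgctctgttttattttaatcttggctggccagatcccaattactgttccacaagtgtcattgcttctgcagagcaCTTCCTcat
Gp9: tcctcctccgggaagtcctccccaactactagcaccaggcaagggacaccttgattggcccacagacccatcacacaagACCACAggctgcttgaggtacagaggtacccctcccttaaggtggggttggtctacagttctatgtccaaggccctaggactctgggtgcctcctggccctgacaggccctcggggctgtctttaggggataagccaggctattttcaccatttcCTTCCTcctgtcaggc
Gp5: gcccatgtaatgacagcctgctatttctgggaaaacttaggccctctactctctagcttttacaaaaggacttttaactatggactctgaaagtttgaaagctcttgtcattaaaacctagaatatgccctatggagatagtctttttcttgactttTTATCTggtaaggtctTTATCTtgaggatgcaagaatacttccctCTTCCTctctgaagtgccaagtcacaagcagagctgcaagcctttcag

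All 3 held AGGAAG, on the strand opposite the gene, ending 4 bases before the start in Pf4, 11 bases in Gp9 and 43 bases in Gp5. Gp5 also held AGATAA at 2 places, and Gp9 held TGTGGT once. Among 32536 RefSeq promoters of the same length, 29.6% held AGGAAG, 9.97% AGATAA, 14% TGTGGT, 13.7% CGGAAG and 7.79% TGATAA. Of the other members in the table, Itga2b held AGGAAG at 2 places, Gp1bb held CGGAAG, Gp6 held AGATAA and F2r held TGTGGT. These matches describe letters only, and a promoter was matched for 7 of the 8 genes. In the GRCm38 annotation all 8 genes are protein-coding. On the plus strand are Pf4 at chr5:90772435-90773383, Vwf at chr6:125546774-125686679 and Gp9 at chr6:87778072-87779768. On the minus strand are Itga2b at chr11:102453297-102470122, Gp1bb at chr16:18620317-18622403, Gp5 at chr16:30307685-30310779, Gp6 at chr7:4363965-4397744 and F2r at chr13:95601803-95618487. Gp1bb lies within the span of Sept5 on the same strand, so its counts are uncertain. Sept5 itself was at 1.32 CPM in control, 3.9 CPM in deleted and 2.11 CPM in SI cells.

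In the Mll3/4 deleted library the level of every member with enough counts lay below control over all kept cells, by 7.14-fold for Gp5 to 39-fold for Pf4. A gene was counted as lower or higher when its CPM ratio, with 1 CPM added to both sides, passed 2-fold and the library with more held at least 100 UMIs. By that rule 7 of 7 members were lower, against 10.1% of all 13775 genes lower and 13.7% higher. The members' median log2 ratio was -3.35, against 0.00 for all genes. Gp6, the collagen receptor, was at 2, 0 and 3 UMIs in control, deleted and SI cells and supports no comparison.

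Of the granule proteins, Pf4, a chemokine of alpha granules, was at 137 CPM in control and 3.51 CPM in deleted cells, which is 39-fold lower (35.3 to 43.2). Vwf, the adhesive protein that tethers platelets to injured vessels, was at 9.1 CPM in control and 0.35 CPM in deleted cells, 26-fold lower (18.9 to 36.7). The intervals of the deleted and control libraries did not overlap for either gene, nor for any other tested member. The share of all genes for which this holds was not taken.

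Itga2b, the alpha chain of the fibrinogen receptor, stood at 54.8 CPM in control and 2.17 CPM in deleted cells, 25.3-fold lower (22.2 to 28.9). Gp1bb, Gp9 and Gp5 encode subunits of the von Willebrand factor receptor. Gp1bb was at 8.06 and 0.521 CPM, 15.5-fold lower (11.9 to 20.5). Gp9 was at 15.1 and 0.431 CPM, 35.1-fold lower (26.4 to 47.8). Gp5 was at 23.7 and 3.32 CPM, 7.14-fold lower (6.41 to 7.97), the smallest difference of the 7. F2r was at 27 and 1.74 CPM, 15.5-fold lower (13.4 to 18).

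Gp5 had another distribution over cells than the rest in the deleted library. Of its UMIs there 84.9% lay in the B lineage marker cells, at 3.18 CPM (2.84 to 3.55), against 13.3% of Pf4 UMIs, 12.9% of Itga2b UMIs and 20.1% of F2r UMIs. Pf4 was at 0.527 CPM in the same cells and Gp9 at 0.0304 CPM. In deleted cells with neither kind of marker Gp5 was at 4.49 CPM (3.39 to 5.83) and Pf4 at 27.2 CPM. The B lineage marker cells were 94.2% of the library, so Gp5 was not concentrated in them.

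**Figure D1:**
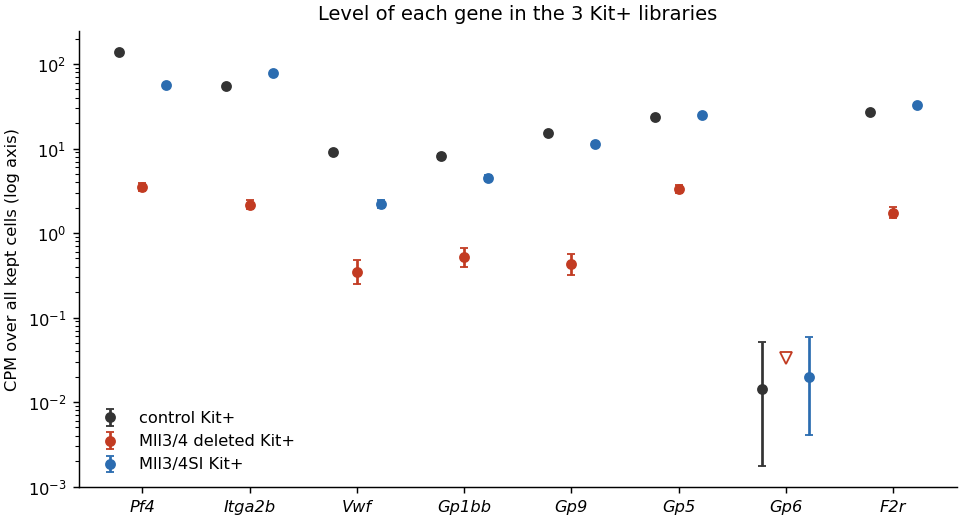
CPM of each gene over all kept cells (log axis) in the control (black), Mll3/4 deleted (red) and Mll3/4SI (blue) Kit+ libraries; bars are exact 95% Poisson intervals and the open triangle is the upper limit for 0 UMIs. The deleted library lies lowest for the 7 genes other than Gp6, while SI lies below control for Pf4, Vwf, Gp1bb and Gp9 and above it for Itga2b and F2r.

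Much of the distance moved with the B lineage marker cells. Without them 800 deleted and 11003 control cells remained, and the ratio summed over the 8 genes went from 0.0439 (0.0415 to 0.0463) to 0.258 (0.241 to 0.275). Then 6 of 7 members still passed 2-fold, against 2.61% of all genes. Pf4 was at 27 CPM against 137 CPM, a ratio of 0.197 (0.176 to 0.219), and Gp5 at 4.46 against 23.8 CPM, a ratio of 0.188 (0.142 to 0.244). Gp1bb, at 4.38 against 8.08 CPM, was within 2-fold with a ratio of 0.543 (0.406 to 0.711).

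Among Hlf cells 5 of 7 members were lower in the deleted library, against 3.01% of all genes. Pf4 was at 198 CPM in control and 41.7 CPM in deleted Hlf cells, 4.74-fold lower (3.98 to 5.7), and Gp9 at 22.1 and 4.59 CPM, 4.81-fold lower (2.84 to 8.84). Gp5 was 3.53-fold lower (2.15 to 6.22), Vwf 2.52-fold lower (1.51 to 4.54) and Itga2b 2.32-fold lower (1.9 to 2.87). Gp1bb, with a ratio of 0.799 (0.514 to 1.19), and F2r, with 0.749 (0.575 to 0.961), stayed within 2-fold. Only 186 deleted cells carried Hlf, and 23 of them carried the B lineage markers. Without the marker cells the counts were again 5 of 7, against 3.51% of all genes. The deleted Hlf cells were deeper, with a median of 15920.5 UMIs against 10314 in control.

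In Car1 cells of the deleted library Pf4, Vwf and Gp1bb had 0 UMIs. Against a limit of 3 UMIs this makes Pf4 at least 123-fold lower, Vwf at least 6.63-fold lower and Gp1bb at least 7.48-fold lower than control. All 7 tested members were lower, against 11.1% of all genes. These bounds rest on a set made up mostly of B lineage marker cells. Without them 36 deleted Car1 cells remained, in which Pf4, Vwf and Gp1bb were still at 0 UMIs. The same limit, 7.92 CPM there, makes Pf4 at least 23.6-fold lower, but Vwf only at least 1.27-fold and Gp1bb at least 1.44-fold lower. Itga2b was at 18.5 against 78.7 CPM. By the rule 6 of 7 were lower, against 8.39% of all genes, and F2r, with a ratio of 0.641 (0.292 to 1.22), was within 2-fold. All met the rule's minimum of UMIs through control alone, and Gp9 and Gp5 had 2 and 3 deleted UMIs. The upper limits of the ratios were 0.976 for Vwf, 0.865 for Gp1bb, 0.876 for Gp9 and 0.96 for Gp5. For these genes the count therefore does not establish a 2-fold difference. The upper limits were 0.0521 for Pf4 and 0.485 for Itga2b, both past 2-fold.

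Elane cells served as cells that should lack these genes, which did not hold in full. Itga2b was found in 17.8% of Elane cells in control, at 21.6 CPM, and in 29.4% in SI, at 39.3 CPM. Gp9 was found in 5.52% and F2r in 3.98% of control Elane cells, and 104 of these 4223 cells carried at least 3 members. In control the Elane cells held Pf4 at 20.8 CPM in 4.5% of cells, at a median depth of 14418 UMIs, against 137 CPM in 11.7% of all control cells. In SI they held it at 5.93 CPM in 3.26% of cells, at a median depth of 16277 UMIs. In the deleted library the share of Elane cells with a UMI was above that of all kept cells for Itga2b (4.87% and 0.917%), Vwf (1.44% and 0.182%), Gp9 (1.26% and 0.269%) and Pf4 (0.542% and 0.262%), at median depths of 19854 and 6507 UMIs, and below it for Gp5 (0.722% and 2.35%), F2r (0.722% and 0.844%) and Gp1bb (0% and 0.233%). After thinning Pf4 was found in 0 of the 554 Elane cells and 18 of 13292 of all cells. Deleted Elane cells held 3 Pf4 UMIs in all, a ratio to control of 0.0132 (0.00271 to 0.0385). There 5 of 6 tested members were lower, against 2.18% of all genes, and Vwf was within 2-fold by the rule. Without the B lineage marker cells the count was again 5 of 6, against 2.52% of all genes. As the levels of cells that should lack these genes, these counts are given without further reading.

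In the Mll3/4SI library only Pf4 and Vwf of the 7 tested members passed 2-fold over all kept cells, both lower, against 0.983% of all 13223 genes lower and 2.3% higher. Pf4 was at 137 CPM in control and 56.9 CPM in SI cells, 2.41-fold lower (2.35 to 2.47). Vwf was at 9.1 and 2.2 CPM, 4.14-fold lower (3.66 to 4.68), and did not pass 2-fold with 10 CPM added to both sides. Gp1bb was at 8.06 and 4.47 CPM, a ratio of 0.554 (0.503 to 0.61), and Gp9 at 15.1 and 11.4 CPM, a ratio of 0.756 (0.709 to 0.806).

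The remaining members did not lie below control. Gp5 was at 23.7 CPM in control and 24.8 CPM in SI cells, a ratio of 1.04 (0.996 to 1.09). F2r was at 27 and 32.7 CPM, a ratio of 1.21 (1.16 to 1.26), and Itga2b at 54.8 and 77.6 CPM, a ratio of 1.42 (1.38 to 1.46). The 3 subunit genes of the von Willebrand factor receptor thus ranged in ratio from 0.554 for Gp1bb to 1.04 for Gp5. Without the mast or basophil marker cells Gp1bb was at 0.477, while Gp9 and Gp5 lay close together at 0.861 and 0.897. Summed over the 8 genes the ratio was 0.765 (0.753 to 0.776), but without Pf4 it was 1.11 (1.09 to 1.13). Both include the mast or basophil marker cells, and the sum without Pf4 was not taken without these cells. Pf4 made up 49.8% of the control sum and 27.1% of the SI sum.

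Within Hlf cells Pf4 was at 198 CPM in control and 55 CPM in SI cells, 3.59-fold lower (3.42 to 3.77). Vwf was 5.85-fold lower (4.63 to 7.46) and Gp1bb 2.31-fold lower (1.93 to 2.78), so 3 of 7 members passed, against 1.15% of all genes. Itga2b, Gp5 and F2r had ratios of 0.967 (0.915 to 1.02), 0.973 (0.871 to 1.09) and 1.04 (0.953 to 1.14). In Car1 cells Pf4 was 2.77-fold and Vwf 3.89-fold lower, and these 2 of 7 passed, against 0.854% of all genes. In Elane cells Pf4 alone of 6 passed, 3.5-fold lower (3.1 to 3.97), against 0.617% of all genes, while Itga2b was at 39.3 against 21.6 CPM, a ratio of 1.82 (1.7 to 1.95). The sets overlap and are not separate support for one another. Without the mast or basophil marker cells 3 of 7 members passed in Car1 cells, against 0.711% of all genes, with Gp1bb at a ratio of 0.423 as the added one. In the same cells Itga2b was at 87 against 78.6 CPM with the marker cells, a ratio of 1.11 (1.03 to 1.19), and at 70.7 against 77.8 CPM without them, a ratio of 0.908 (0.834 to 0.989). In Elane cells Pf4 was again the only 1 of 6, against 0.593% of all genes.

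**Figure D2:**
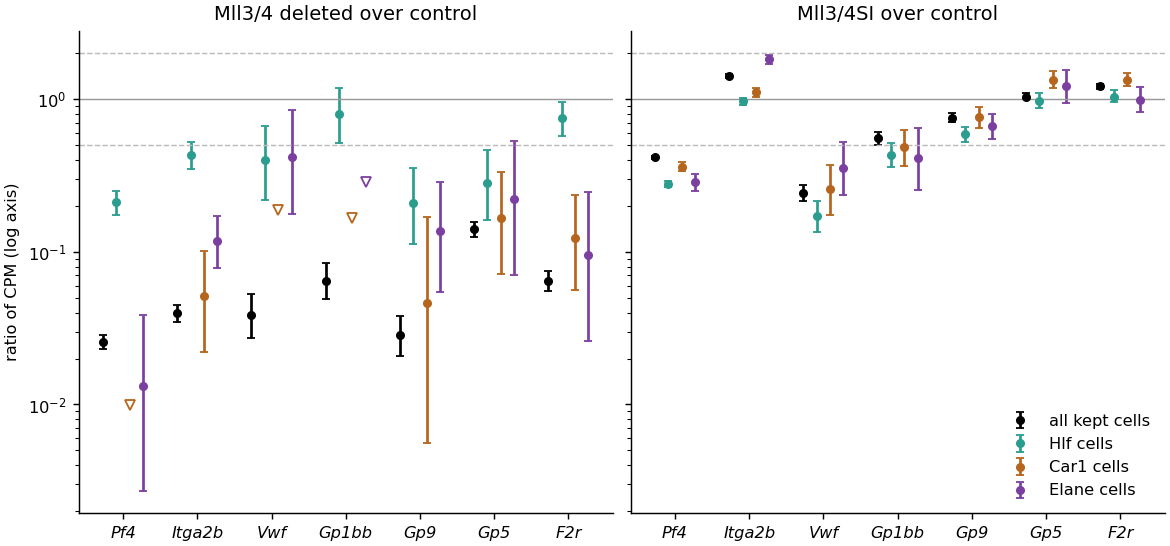
Ratio of CPM to control (log axis) for 7 genes in all kept, Hlf, Car1 and Elane cells, for the Mll3/4 deleted (left) and Mll3/4SI (right) libraries; bars are exact 95% intervals of counting error, open triangles are the upper bounds of the 95% interval where the library had 0 UMIs, and dashed lines mark 2-fold. On the left the Hlf cells lie closest to 1 for most genes, and on the right Pf4 and Vwf lie below 0.5 in every set while Gp5 and F2r lie between 0.973 and 1.34.

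Mast or basophil marker cells of the SI library carried part of these genes. Pf4 was at 103 CPM (98.4 to 107) in the 1561 SI marker cells and at 11.7 CPM (6.57 to 19.4) in the 104 control ones. A few cells carried this level: 57 marker cells with 10 or more Pf4 UMIs held 65.1% of those UMIs, and the SI marker cells with fewer were at 36.9 CPM (34.4 to 39.6). They held 26.5% of all Pf4 UMIs of the SI library, 31.2% of Itga2b UMIs, 26.3% of Gp5 UMIs and 29% of F2r UMIs, but 3.01% of Vwf UMIs and 2.95% of Gp9 UMIs. Itga2b was at 164 CPM in the marker cells of both libraries. Without these cells the SI to control ratio became 0.355 (0.345 to 0.365) for Pf4, 0.273 (0.241 to 0.309) for Vwf and 0.477 (0.429 to 0.531) for Gp1bb. It became 0.861 (0.807 to 0.919) for Gp9, 1.16 (1.13 to 1.2) for Itga2b, 0.897 (0.852 to 0.944) for Gp5 and 1.01 (0.964 to 1.06) for F2r. Pf4 and Vwf were again the 2 of 7 past 2-fold, against 0.767% of all genes, and in Hlf cells again 3 of 7, against 1.09%. In these Hlf cells Itga2b, Gp5 and F2r then lay below control too, with ratios of 0.873 (0.823 to 0.926), 0.807 (0.715 to 0.911) and 0.89 (0.811 to 0.977).

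Pf4 was detected in 1296 of 11051 control cells (11.7%, 11.1 to 12.3) and 1477 of 11501 SI cells (12.8%, 12.2 to 13.5). With each cell thinned to 2000 UMIs, which left out 199 control and 125 SI cells, the shares were 6.11% (5.67 to 6.58) and 5.17% (4.77 to 5.59). Their order thus depends on the number of UMIs drawn per cell, although median depths were close, at 11594 and 11969 UMIs. It also depends on the mast or basophil marker cells, 25.6% of which held Pf4 in SI: without them the shares were 11.8% (11.2 to 12.4) in control and 10.8% (10.2 to 11.5) in SI, and 6.15% and 4.29% after thinning. Cells with Pf4 held a mean of 14.7 UMIs of it in control and 5.81 in SI. In the deleted library 36 of 13747 cells held Pf4 (0.262%), with a mean of 10.9 UMIs, and of its 791 cells with neither kind of marker 2.78% did.

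Cells with 10 or more Pf4 UMIs, a cutoff chosen after the values were seen, numbered 378 in control (3.42%, 3.09 to 3.78), 178 in SI (1.55%, 1.33 to 1.79) and 10 in deleted (0.0727%, 0.0349 to 0.134). They carried 89.8%, 69.4% and 91% of all Pf4 UMIs of their library, with means of 45.4, 33.5 and 35.6 Pf4 UMIs per cell. The cutoff itself bears on how a difference divides between the share and the mean. After thinning, cells with 10 or more made up 1.01% of control and 0.176% of SI cells, and 0 of 13292 deleted cells. With 50 or more UMIs there were 125 control, 32 SI and 2 deleted cells. Of the cells with 10 or more, 112 of 378 in control (29.6%), 50 of 178 in SI (28.1%) and 3 of 10 in deleted also carried Hlf.

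The other members differed in how widely they were detected. Itga2b was found in 27.7% of the control library's cells, 0.917% of those in the deleted library and 41.2% of those in SI, and after thinning in 10.8%, 0.263% and 14%. F2r was found in 21.1%, 0.844% and 23.5%, and Gp5 in 18.9%, 2.35% and 18.6%. In cells with neither kind of marker Itga2b was found in 12.5% in the deleted library and 36.3% in SI, and F2r in 10.5% in the deleted library. For Gp9 the shares in the same order were 12.7%, 0.269% and 8.63%, for Gp1bb 4.85%, 0.233% and 3.86%, and for Vwf 5.91%, 0.182% and 1.97%. After thinning Vwf was at 1.63% in control and 0.352% in SI. The 1% of cells with the most of a gene held 52.3% of the Pf4 UMIs and 46.3% of the Vwf UMIs in control, against 19.5% for Itga2b, 15.2% for Gp5 and 14.1% for F2r.

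**Figure D3:**
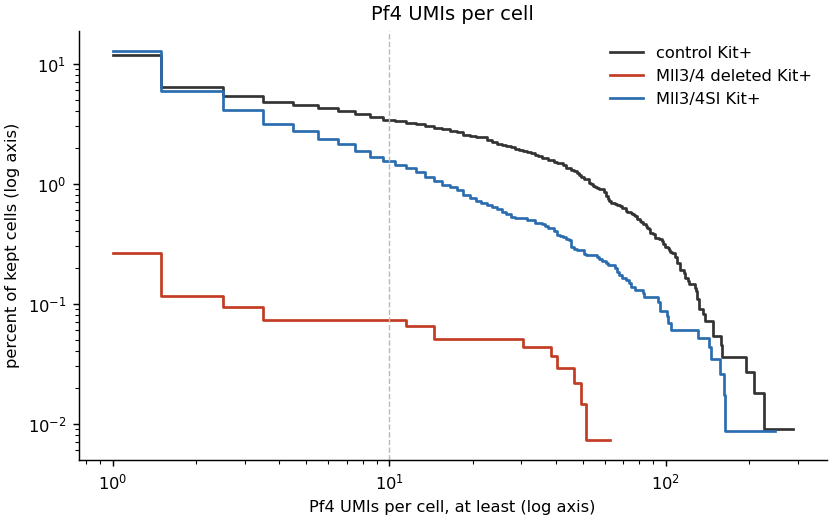
Percent of kept cells (log axis) with at least the number of Pf4 UMIs on the horizontal axis (log axis), unthinned, for control (black), Mll3/4 deleted (red) and Mll3/4SI (blue) Kit+ cells; the dashed line is at 10 UMIs. Control and SI start close together at 1 UMI, 11.7% and 12.8%, and part to 3.42% and 1.55% at 10 UMIs, while the deleted library starts at 0.262%.

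Cells with 10 or more Pf4 UMIs expressed the other members in control: Itga2b was detected in 96.8% of them, F2r in 76.2%, Gp9 in 73.5%, Gp1bb in 72.2%, and Vwf and Gp5 in 71.2% each. In SI cells chosen the same way Vwf was detected in 31.5% (24.7 to 38.8), and was at 55 CPM against 154 CPM in control, 2.79-fold lower (2.33 to 3.36). Gp1bb was at 92.5 against 156 CPM, a ratio of 0.594 (0.511 to 0.687), and Itga2b at 404 against 509 CPM, a ratio of 0.793 (0.737 to 0.853). Gp9, at 121 against 127 CPM, had a ratio of 0.955 (0.832 to 1.1). Gp5 and F2r were above control, with ratios of 1.19 (1.04 to 1.35) and 1.43 (1.27 to 1.62). Median depths were 11377.5 UMIs in control and 12981 UMIs in SI.

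Of these SI cells 57 of 178 (32%) carried mast or basophil markers, against 0 of 378 in control. The 57 cells had Pf4 at 2124 CPM and F2r at 193 CPM, but Vwf at 7.16 CPM (2.33 to 16.7) and Gp9 at 12.9 CPM (5.89 to 24.5). In the other 121 cells Vwf was at 72.9 CPM (61.2 to 86.3), a ratio to control of 0.475 (0.393 to 0.571), Gp1bb had a ratio of 0.699 (0.596 to 0.817), and Gp9 lay above control with 1.28 (1.11 to 1.46). In these 121 cells Cpa3, a mast cell protease that was not used to mark the cells, was at 97.1 CPM against 38.7 CPM in control, a ratio of 2.51 (2.03 to 3.08). Fcer1g, which is not restricted to mast cells, was at 137 against 70.1 CPM, and the marker Ms4a2 at 8.58 CPM, from 16 UMIs, against 4.59 CPM. Whether these transcripts mark remaining mast cells, and their part in the ratios, was not tested. Leaving out the marker cells throughout, Vwf lay below control at every range of Pf4. The ratio was 0.498 (0.406 to 0.609) with 0 Pf4 UMIs, 0.283 (0.176 to 0.442) with 1 to 4, 0.17 (0.094 to 0.289) with 5 to 9, 0.522 (0.4 to 0.675) with 10 to 49 and 0.52 (0.393 to 0.678) with 50 or more. Of these, the ranges of 0, 10 to 49 and 50 or more were within 2-fold by the rule, and that of 1 to 4, with 80 control UMIs, was under its minimum of 100. In the range of 1 to 4, Cpa3 was at 575 CPM in SI against 103 CPM in control and Fcer1g at 213 against 115 CPM.

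The 10 deleted cells with 10 or more Pf4 UMIs had Vwf at 104 CPM (63.4 to 160), Gp1bb at 109 CPM (67.4 to 167) and F2r at 98.6 CPM (59.4 to 154), and the ratios of these 3 to control did not exclude 1. Itga2b was at 322 CPM (247 to 412), with a ratio of 0.632 (0.483 to 0.813). Gp9 and Gp5, with 7 UMIs each, were at 36.3 CPM (14.6 to 74.8), with ratios of 0.286 (0.115 to 0.593) and 0.291 (0.117 to 0.603). Vwf was detected in 7 of these 10 cells. The 10 cells were not split by the B lineage markers. In the deleted library 14 B lineage marker cells held 52 Pf4 UMIs, while all 26 cells with 1 to 4 Pf4 UMIs held 35. Not all of the 10 cells therefore lacked these markers, and their part in the levels was not tested.

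**Figure D4:**
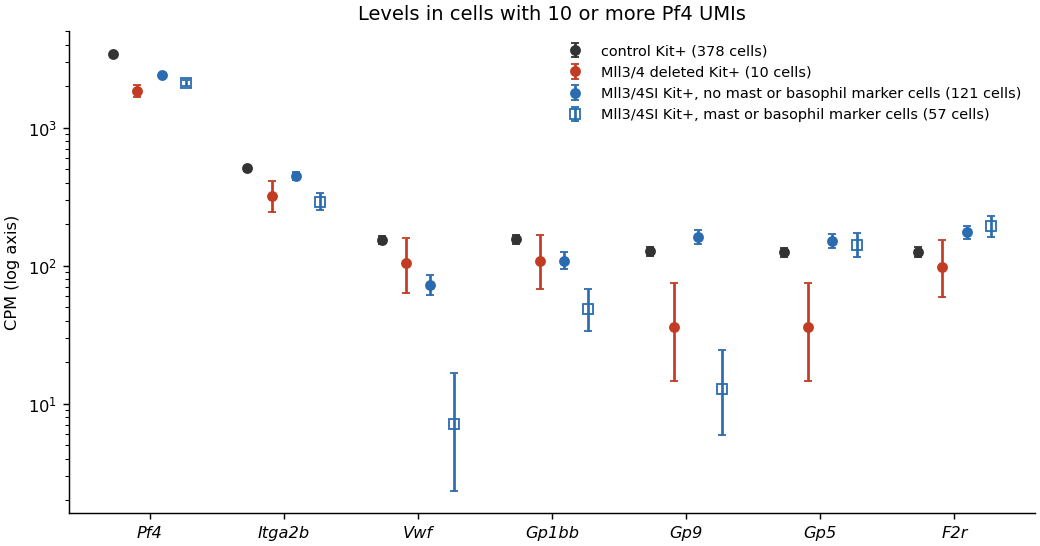
CPM (log axis) of 7 genes in cells with 10 or more Pf4 UMIs, for control (378 cells, black), Mll3/4 deleted (10 cells, red) and Mll3/4SI cells without mast or basophil markers (121 cells, filled blue) and with them (57 cells, open blue squares); bars are exact 95% Poisson intervals. The squares fall away from the filled symbols for Vwf and Gp9 and stay close to them for Gp5 and F2r.

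Members were detected in the same cells more often than the product of their single shares gives. In control cells thinned to 2000 UMIs, Pf4 and Vwf were both found in 122 cells where the product gives 10.8, an 11.3-fold excess, and Pf4 and Gp1bb in 105 cells where it gives 9.41, an 11.2-fold excess. Pf4 and F2r were the least linked pair with Pf4, at 3.36-fold. In SI cells the excess was 5.8-fold for Pf4 with Vwf (12 cells), 7.83-fold for Pf4 with Gp1bb (49 cells) and 2.58-fold for Pf4 with Itga2b, against 5.01-fold in control. It was lower in SI than in control for 17 of 21 pairs and for all 6 pairs with Pf4. The highest excess of any pair was 12.7-fold in control and 14.1-fold in SI. The mast or basophil marker cells were left in, and in SI 25.6% of them held Pf4 and 0.448% Vwf. Co-detection was not taken without these cells, nor for pairs of other genes. Cells in which at least 3 members were detected made up 12.3% of control and 13% of SI cells, and 3.51% (3.17 to 3.87) and 1.82% (1.58 to 2.08) after thinning. In the deleted library they made up 0.291% unthinned, and 4 of 13292 cells after thinning, which left out 455.

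**Figure D5:**
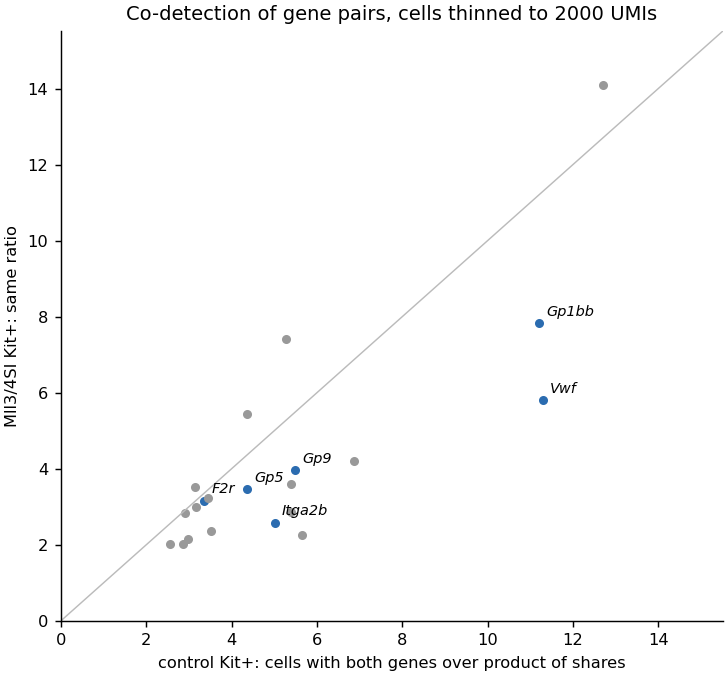
Cells with both genes of a pair over the number the product of their single shares gives, in control (horizontal) and Mll3/4SI (vertical) Kit+ cells thinned to 2000 UMIs; each point is 1 of 21 pairs, blue points are pairs of Pf4 with the gene named, and the line marks equal values. All 6 Pf4 pairs lie below the line, with Vwf (11.3 and 5.8) farthest from it.

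Across the 11051 control cells the genes most like each member were ranked by Pearson's r of log2(1 + UMIs per 10000) against 12485 genes. The other members were left out of this ranking. Between members r was 0.65 for Pf4 with Gp1bb, 0.60 for Pf4 with Vwf and 0.44 for Pf4 with Gp9. For Gp5 it was 0.37 with Pf4 and 0.33 with F2r, so Gp5 and F2r did not form a group apart. This is a description over cells of 1 library that share depth. Cavin2, a membrane coat gene, led for Pf4 (r = 0.70), Gp1bb (0.58), Vwf (0.52) and Gp9 (0.38), and was among the leading 3 for Itga2b (0.49). For Pf4 it was followed by Rab27b, a GTPase of granule secretion (0.59), and Treml1, a receptor of platelet granules (0.56). Gp5 and F2r instead had Slc14a1, a urea transporter (0.39 and 0.37), and Mfsd2b, a lipid exporter of red cells and platelets (0.38 and 0.41), among their leading 3. In SI cells the r of Pf4 with Cavin2 was 0.43 and that of Vwf with Cavin2 0.22, and those of F2r were 0.39 with Mfsd2b and 0.19 with Apoe, a lipid carrier, against 0.39 for Apoe in control. These SI values include the mast or basophil marker cells, and r was not taken without them. Gp6 rests on 2 UMIs, so no gene is given for it.

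A list of 40 other genes of the lineage, in 4 roles, was set beside the members. In the deleted library 27 of 36 tested were lower, 1 higher and 8 within 2-fold, against 10.1% of all genes lower and 13.7% higher, with a median log2 ratio of -2.25 against 0.00 for all genes. By role, 9 of 11 receptors, 4 of 5 granule genes, 7 of 10 genes of cytoskeleton and signalling and 7 of 10 transcription factors were lower. Among the lowest ratios were those of Treml1 at 0.0284 (0.0181 to 0.0425), Gp1ba, the ligand-binding chain of the von Willebrand factor receptor, at 0.0454, and the transcription factors Gata1 at 0.0541 and Gfi1b at 0.0578. Mmrn1, a granule protein that binds factor V, was at 125 CPM in deleted and 4.47 CPM in control cells, 28-fold higher (25.9 to 30.4), and 99.9% of its UMIs there lay in the B lineage marker cells. Meis1 was the other gene with a ratio above 1, at 1.08 (1.05 to 1.11). Without the B lineage marker cells 10 of 36 were lower, against 2.61% of all genes. Gata1 was then at 37.3 against 83.1 CPM, a ratio of 0.449 (0.408 to 0.492), Gfi1b at 0.464 (0.419 to 0.512), Treml1 at 0.251 (0.16 to 0.376) and Gp1ba at 0.223 (0.106 to 0.414). Of the 10 transcription factors only Gata1 and Gfi1b were then lower by the rule. The rest were within 2-fold, some of them above control, such as Fli1 at 1.11 (1.06 to 1.17). Mmrn1 had a ratio of 0.342 (0.204 to 0.539), on the other side of 1, and so had Meis1 with 0.908 (0.848 to 0.973). Nbeal2 had a ratio of 1.02 (0.858 to 1.2).

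In Hlf cells of the deleted library 3 of 34 listed genes were lower, against 3.01% of all genes, and all 10 transcription factors were within 2-fold. In the SI library 34 of 37 tested were within 2-fold over all kept cells, 1 was lower and 2 higher, against 0.983% and 2.3% of all genes, with a median log2 ratio of -0.05 against 0.04 for all genes. Itgb3, the beta chain that pairs with Itga2b, was at 12.9 CPM in control and 35 CPM in SI cells, a ratio of 2.7 (2.56 to 2.85), and Plek, a platelet signalling protein, at 40.6 and 109 CPM, a ratio of 2.69 (2.61 to 2.78). Of the SI UMIs 30.9% of Itgb3 and 29.4% of Plek lay in mast or basophil marker cells, and without these cells the ratios were 2.17 (2.05 to 2.3) and 2.23 (2.16 to 2.31). Next were Itga2, a collagen receptor chain (2.27), Nbeal2, needed to form alpha granules (1.76), and Selp, the granule adhesion protein P-selectin (1.73). Itga2 had 35.9% of its SI UMIs in the marker cells, and without them its ratio was 1.76 (1.5 to 2.06), with Nbeal2 at 1.7 and Selp at 1.71. Treml1 was the only one past 2-fold lower, with a ratio of 0.401 (0.359 to 0.448), which without the marker cells was 0.447 (0.399 to 0.5) and within 2-fold by the rule, and Gata1 (0.525), Gfi1b (0.591) and the tetraspanin Cd9 (0.623) were among the next.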

How the data were processed

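Raw UMI counts per gene and cell were deposited by the authors, made with Cell Ranger 7.1.0 and build mm10 per the submitters' processing notes. Cells with at least 1000 UMIs, 500 genes and at most 10% mitochondrial UMIs were kept. Scrublet in scanpy 1.11.5 called 1166, 0 and 1 doublets in the control, deleted and SI libraries with its own thresholds, which did not work in the last 2, so cells with a score above 0.25 were removed in each (840, 1168 and 580 cells). UMIs were summed over cells of a library and divided by the summed total. CPM carry exact Poisson, shares exact Clopper-Pearson and ratios exact conditional binomial intervals, all at 95% and for counting error only. A call needed a 2-fold ratio with 1 CPM added and 100 UMIs in the library with more. Thinning drew 2000 UMIs per cell without replacement. The 32285 gene identifiers were compared with the GRCm38 annotation, and 32158 matched. On simulated counts with 200 changed genes the ratio intervals covered the known change for 97% of them (deleted over control, 12716 genes) and 95% (SI over control, 12839 genes). These counts were drawn as Poisson counts, the model that the intervals assume, without clumping of UMIs in cells. They check the computation only. Named were all members, the 5 largest listed ratios each way and 3 likest genes per member, apart from genes that are not reported here. The members, lists and rules were chosen with earlier results of these data known. Computations used Python 3.11.15, numpy 2.4.6 and scipy 1.17.1.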

Additional observations from a re-analysis of the deposited data

Results flagged for a closer look

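The control B220lo library, which entered no comparison, held UMIs of all 8 genes above the limit of 3 counts, 0.0389 CPM in that library. Pf4 was at 5.18 CPM, Itga2b at 2.72 CPM, F2r at 2.54 CPM and Gp5 at 1.4 CPM. Gp9 was at 0.259 CPM, Vwf at 0.246 CPM, Gp1bb at 0.168 CPM and Gp6 at 0.0518 CPM, the last from 4 UMIs. Of the 400 Pf4 UMIs 343 lay in 2 of 15380 cells.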

How the results depend on the processing

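Leaving out B lineage marker cells moved the summed ratio of deleted to control from 0.0439 to 0.258 over all kept cells and from 0.326 to 0.366 in Hlf cells. Leaving out both kinds of marker cells, added after seeing the data, gave 0.257 and 0.363. Leaving out mast or basophil marker cells moved the summed SI ratio from 0.765 to 0.653 and in Hlf cells from 0.536 to 0.475, and leaving out both kinds gave 0.653 and 0.475. Thinning gave 0.0274 for deleted and 0.732 for SI over all kept cells, and 0.574 for SI in Hlf cells. Keeping the removed doublets gave SI ratios of 0.78 and 0.601, as did using all barcodes (0.78 and 0.601). A total without mitochondrial and ribosomal protein genes gave 0.749 for SI. At least 2 Hlf UMIs gave 0.486 (deleted) and 0.65 (SI), and 1 Hlf UMI after thinning 0.502 and 0.583. Summing without Pf4 gave 0.0619 and, in Hlf cells, 0.461 for deleted, turned the SI ratio to 1.11 and gave 0.838 in SI Hlf cells. These sums without Pf4 kept the marker cells in. With 10 CPM added, 1 member (Pf4) instead of 2 passed 2-fold in SI and 5 instead of 7 in deleted, against 0.189% and 3.93% of all genes lower by that rule. Over all kept cells no single member whose interval excluded 1 changed direction under any alternative run, and Gp5 in SI, whose interval held 1, ranged from 0.897 to 1.06. Within the Hlf, Car1 and Elane sets, 40 member ratios were also taken without marker cells, after seeing the data: 26 stayed within their interval, 13 moved beyond it and 1 reversed with both intervals excluding 1, Itga2b in SI Car1 cells (0.908). F2r in SI Hlf cells (1.04 to 0.89) and Gp5 in SI Elane cells (1.21 to 0.883), whose intervals with the marker cells held 1, also crossed it. The causes were not tested. No paired analysis was possible because each group had 1 library and the labels carry no replicate numbers. Few UMIs limit Gp6 in every library and the deleted Hlf and Car1 sets, where most members had under 100 UMIs.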

Other observations

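Among cells with 10 or more Pf4 UMIs, other genes of the lineage were also compared between the SI and control libraries. Those given here were chosen after their values were seen. Treml1 was at 67.9 CPM in SI and 123 CPM in control, a ratio of 0.553 (0.464 to 0.655), and Clu, a secreted granule protein, at 10.1 and 29.8 CPM, a ratio of 0.341 (0.216 to 0.52). Fcer1g, the signalling chain that mast cells and the collagen receptor both use, was at 153 and 70.1 CPM, a ratio of 2.18 (1.88 to 2.53). Gata1 had a ratio of 0.872 (0.745 to 1.02) and Fli1 one of 0.909 (0.844 to 0.979). Of the SI cells 57 of 178 carried mast or basophil markers. Without them the ratio was 1.95 (1.65 to 2.3) for Fcer1g, 0.721 (0.603 to 0.857) for Treml1, 0.342 (0.201 to 0.554) for Clu, 0.981 (0.828 to 1.16) for Gata1 and 1.01 (0.933 to 1.1) for Fli1.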
